A study of Mus musculus with 8 samples.

Results

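The genes described here encode the proteins of the cytosolic ribosome. They were taken by name as the protein-coding rows called Rpl or Rps followed by a number, with Rplp0, Rplp1, Rplp2, Rpsa and Fau added, which gave 84 genes of the 54532 listed, 33 for the small and 51 for the large ribosomal subunit. The ribosome reads mRNA on its small subunit and joins amino acids on its large subunit, and each subunit is an rRNA core with one copy of most of its proteins, the acidic stalk proteins P1 and P2 being the exception with several. Ribosomal protein mRNAs belong to the most abundant in growing tissue. Most of them start in a run of pyrimidines, the 5′ terminal oligopyrimidine (TOP) tract, through which mTORC1 signalling sets their translation, and Myc is known to raise their transcription. Ribosomal proteins that are not built into ribosomes, Rpl5 and Rpl11 in particular, can bind Mdm2 and stabilise p53.

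Upper and lower molar tooth germs came from littermate mouse embryos of the genotypes Notum+/+ and Notum-/- at E14.5 and E16.5, and mRNA selected with poly-T beads was sequenced, with 2 libraries in each of 4 groups and 8 in all. Notum encodes a secreted enzyme that inactivates Wnt ligands. The knockout carries the em1(IMPC)Tcp allele on a C57BL/6N background, the untreated wild types have the same background, and by the methods several embryos went into each replicate without regard to sex. The libraries held 21972354 to 30540596 reads on listed genes, and 745489 to 1173878 of these fell on the 84 genes. Values are FPKM (fragments per kilobase of gene, scaled by the authors to a common library size). Notum itself was at 2.65 and 1.85 FPKM in Notum+/+ and 1.002 and 1.039 FPKM in Notum-/- at E14.5, and at 9.33 and 9.57 against 2.72 and 2.31 FPKM at E16.5, so both knockout libraries were below both wild types at each age. The summed level of 7 markers listed for dental epithelium, among them Krt14 and Shh, was at least 434 FPKM in every library. That of 8 markers listed for dental mesenchyme, among them Msx1 and Pax9, was at least 1642 FPKM.

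The first bases of 7 members are shown, since the TOP tract lies there, and they were picked to show genes that fell, rose, stayed level or differed between replicates. RefSeq starts (GRCm38.p6, the assembly of mm10) matched 64 of the 84 genes with 76 starts. Each line gives 30 bases before and 20 bases from the listed start, and capitals mark the longest run of C and T that overlaps the first base of the gene or the 5 bases on either side of it.
Rpl28, chr7:4792935-4792984, plus strand: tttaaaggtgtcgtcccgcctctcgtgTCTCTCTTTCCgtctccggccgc
Rpl38, chr11:114668550-114668599, plus strand: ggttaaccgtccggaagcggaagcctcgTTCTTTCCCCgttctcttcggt
Rps28, chr17:33824543-33824592, minus strand: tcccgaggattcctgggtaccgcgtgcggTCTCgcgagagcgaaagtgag
Rps6, chr4:86857348-86857397, minus strand: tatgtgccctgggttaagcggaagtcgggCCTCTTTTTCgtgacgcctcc
Rps27, chr3:90213629-90213678, minus strand: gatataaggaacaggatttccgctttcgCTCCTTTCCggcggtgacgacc
Rps15a, chr7:118116128-118116177, minus strand: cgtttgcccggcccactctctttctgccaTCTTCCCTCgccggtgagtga
Rps4x, chrX:102189372-102189421, minus strand: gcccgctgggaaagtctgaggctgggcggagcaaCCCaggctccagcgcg
A C within 5 bases of the first base of the gene that with the bases after it makes at least 5 pyrimidines in a row was present at 32 of the 76 starts (42.1%) and at 18.4% of all 32851 starts in the same table. The letters CCGGAAG, on either strand of the 300 bases around the start, were found at 35.5% of the members' starts and 8.86% of all starts, and TATAAA at 9.21% and 13.6%. These matches describe the letters near an annotated start and not a site in use.

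Ribosomal protein genes were among the most abundant of the tooth germ, and all but 3 were detected well above the floor of 3 reads. The means over the 8 libraries exceeded 1 FPKM for 81 genes and 100 FPKM for 68. The 5 highest were Rplp1, Rplp0, Rps3a1, Rpl4 and Rps4x. Rplp0, the base of the stalk that recruits elongation factors, ranged from 1020 to 1202 FPKM, and Rps3a1, at the platform of the small subunit, from 945 to 1126 FPKM. Rpl4, which reaches into the exit tunnel, stood between 632 and 726 FPKM. The ranges of Rplp0 and Rps3a1 overlapped, but Rplp0 was above Rps3a1 in each of the 8 libraries. The ranges of Rpl4 and of the X-linked Rps4x (599 to 704 FPKM) overlapped too. Rps4x was above Rpl4 in replicate 1 of Notum-/- at each age and below it in the other libraries.

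The 3 lowest were genes with a near relative that carries the main load. Rpl10l, a retrocopy known from the testis, had 0 reads in all 8 libraries, whereas its parent Rpl10 was at 341 to 446 FPKM. Rpl3l, the muscle form of Rpl3, had 0 to 18 reads, and Rpl3 was at 283 to 336 FPKM. Rpl39l, another relative known from the testis, had 2 and 2 reads in Notum+/+ and 7 and 7 in Notum-/- at E14.5, and 10 and 11 in Notum+/+ and 10 and 5 in Notum-/- at E16.5. Rpl39, its X-linked parent, was at 149 to 359 FPKM. Of the other relatives, Rpl7l1 was at 24.5 to 32.4 FPKM against 331 to 408 FPKM for Rpl7, Rpl22l1 at 22.8 to 43.2 FPKM against 88.7 to 117 FPKM for Rpl22, and Rps27l, a gene known as a p53 target, at 59.2 to 85.8 FPKM against 184 to 419 FPKM for Rps27.

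A low FPKM of a member need not mean a low mRNA. The table lists 298 pseudogenes named after 61 of the members, and the share of the joint reads that these took was 93.2% for Rps10, 71.6% for Rpl17, 46.5% for Rpl21 and 37.0% for Rps12. The pseudogenes were taken by name, and the most read of them, Rps12-ps3, is labelled protein-coding, with a mean of 494 FPKM. Rps10 was at 4.92 to 7.02 FPKM while its copy Rps10-ps2 averaged 356 FPKM. Levels of these 4 genes, and of Rpl24 with 45 to 99 reads per library, are therefore uncertain. The summed FPKM of the 298 pseudogenes was 2940 and 3360 in Notum+/+ and 3208 and 3180 in Notum-/- at E14.5, and 3261 and 3378 against 3309 and 3172 at E16.5, with overlap between the genotypes at each age. Single pseudogenes did differ in the limma fit used below. At E16.5 12 of 121 tested were higher and 24 lower in Notum-/- (median -0.16), where 14.5% and 16.4% of genes other than the members were called. With age in Notum+/+ 22 of 120 rose and 5 fell (median 0.11), against 21.2% and 18.8%. Of the members, 29 overlap another listed gene above 0.3 FPKM, in 18 cases a small RNA of an intron and in 14 a longer gene, among them Ube2s with Rpl28. The sources used here do not state whether the reads were counted by strand.

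The sum over the 84 genes was highest in the Notum+/+ libraries of E16.5. It was 20423 and 20377 FPKM in Notum+/+ at E14.5 and 22114 and 20761 FPKM in Notum-/-. At E16.5 it was 23774 and 27076 FPKM in Notum+/+ and 20789 and 19515 FPKM in Notum-/-. Both wild types of E16.5 thus lay above the other 6 libraries, and both knockouts of E16.5 within or below the range of E14.5. As a share of the FPKM of all genes this was 7.90% ± 0.0014 (SD, n = 2) and 8.09% ± 0.26 at E14.5 and 9.17% ± 0.66 and 7.70% ± 0.30 at E16.5 in Notum+/+ and Notum-/-. These sums were not tested, because a two-sided exact permutation test of 2 values in each group cannot give a p below 0.333. In whole tooth germs a lower level of an mRNA in each cell and fewer cells that hold it cannot be told apart.

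**Figure D1:**
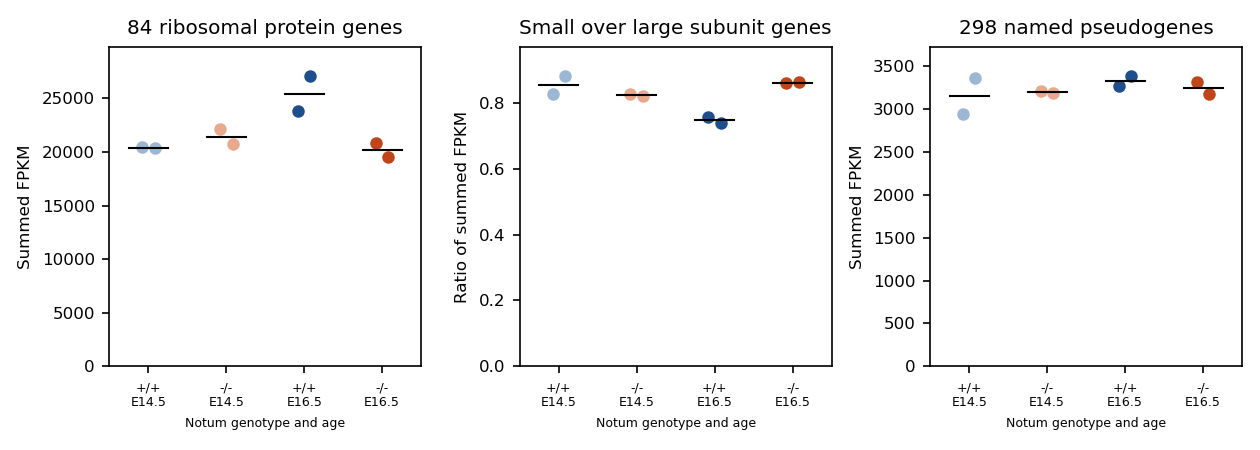
Summed FPKM of the 84 ribosomal protein genes (left), ratio of the summed FPKM of the 33 small to the 51 large subunit genes (middle) and summed FPKM of 298 pseudogenes named after members (right), by Notum genotype and age. Dots are libraries and lines are means of 2; the Notum+/+ libraries of E16.5 are highest in the left panel, at 23774 and 27076 FPKM, and lowest in the middle panel, at 0.756 and 0.739.

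The ratio of the subunits was lowest in the Notum+/+ libraries of E16.5. The small subunit sum divided by the large subunit sum was 0.825 and 0.880 in Notum+/+ and 0.825 and 0.819 in Notum-/- at E14.5. At E16.5 it was 0.756 and 0.739 in Notum+/+ and 0.859 and 0.861 in Notum-/-. The wild types of E16.5 were lower than the other 6 libraries, and the knockouts of E16.5 lay inside the range of E14.5.

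At E14.5 no ribosomal protein gene passed the test between the genotypes. In limma on log2(FPKM + 0.1), 0 of the 81 members tested were higher and 0 were lower in Notum-/- at an adjusted p under 0.05, where 0.177% of the 18106 other genes tested were called higher and 0.0331% lower. An unadjusted p under 0.05 was reached by 6 members (7.41%, against 9.47% of the other genes), and limma's voom on the rebuilt reads called 1 higher and 2 lower (3.70%, against 2.03%). The median log2 fold change of the members was 0.05, against -0.01 over all genes tested, with values from -0.42 (Rpl35a) to 0.54 (Rpl23a, limma adjusted p = 0.33). The 2 knockout libraries lay above both wild types for 22 members and below both for 10, against 20.1% and 20.6% of the other genes tested.

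At E16.5 many ribosomal protein genes were lower in Notum-/- tooth germs. Of the 82 members tested, 36 fell and 2 rose, where 16.4% of the 18488 other genes tested were called lower and 14.5% higher. Most members are abundant, and of the 249 other genes above 100 FPKM 78 were called lower and 55 higher. In either direction that was 53.4% of these genes and 46.3% of the members. The median of the members was -0.29 on the log2 scale (from the 25th to the 75th percentile, -0.62 to -0.10) and that of all genes tested 0.00. Both knockout libraries lay below both wild types for 55 members and above for 6, against 34.8% and 35.0% of the other genes tested. Among the 249 other genes above 100 FPKM they lay below for 123 and above for 95. Of the 49 large subunit genes tested 26 fell and 0 rose, with a median of -0.43, and of the 33 small subunit genes tested 10 fell and 2 rose, with a median of -0.14. The difference between the subunits was not tested. The calls depended on both knockout libraries: without either of them 0 members passed, as did 0 of all genes tested, while the median stayed between -0.45 and -0.21 when any single library was left out.

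The largest falls were those of Rpl23a, Rpl28 and Rps28. Rpl23a (ENSMUSG00000058546, mm10 chr11:78180932-78183584), a protein at the mouth of the exit tunnel, was at 362 and 432 FPKM in Notum+/+ and 166 and 158 FPKM in Notum-/-. The knockouts were at 40.9% of the wild type mean, a log2 fold change of -1.29 ± 0.10 (SE, limma adjusted p = 0.0051). Named pseudogenes took 18.2% of the reads joint to Rpl23a. Rpl28 (ENSMUSG00000030432, chr7:4792874-4795066), a large subunit protein that bacteria lack, was at 265 and 288 FPKM in Notum+/+ and 112 and 120 FPKM in Notum-/-. Its fold change was -1.25 ± 0.07 (limma adjusted p = 0.0040), with no overlap between the groups. Rps28 (ENSMUSG00000067288, chr17:33819027-33824562), a small subunit protein near the mRNA exit, was at 82.8 and 99.5 FPKM in Notum+/+ and 38.2 and 40.2 FPKM in Notum-/-, which is -1.21 ± 0.10 on the log2 scale (limma adjusted p = 0.0053). Of these 3, Rpl28 has the long run of pyrimidines at its start printed above and Rps28 a short one.

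The 2 members that rose at E16.5 were Rps15a and Rps14. Rps15a was at 64.3 and 76.1 FPKM in Notum+/+ and 95.8 and 91.6 FPKM in Notum-/-, or 0.42 ± 0.09 higher on the log2 scale (limma adjusted p = 0.030). Rps14, at the platform of the small subunit and known from the human 5q- syndrome, was at 478 and 523 against 610 and 610 FPKM (0.29 ± 0.07, limma adjusted p = 0.044). Neither call held under every alternative fit, and the limma adjusted p ranged up to 0.17 for Rps15a and 0.32 for Rps14.

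**Figure D2:**
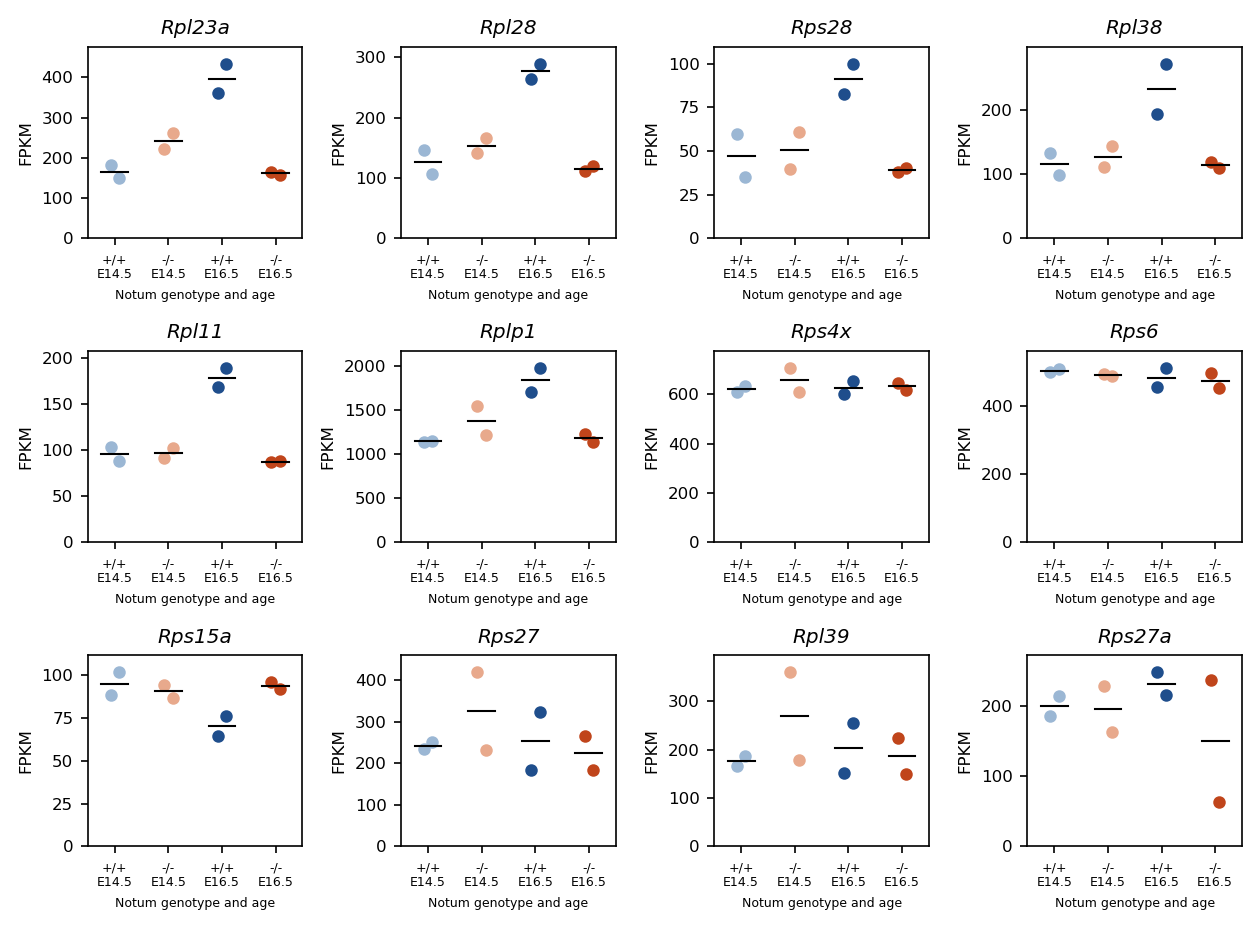
FPKM of 12 ribosomal protein genes by Notum genotype and age, with dots for libraries and lines for means of 2. Rpl23a, Rpl28, Rps28, Rpl38, Rpl11 and Rplp1 are highest in the 2 Notum+/+ libraries of E16.5, Rps4x and Rps6 are level, Rps15a is lowest there, and Rps27, Rpl39 and Rps27a differ between libraries of one group.

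In the stalk, whose proteins bind the elongation factors, Rplp1 and Rplp2 fell and Rplp0 did not pass. Rplp1, the most abundant of all members, was at 1702 and 1975 FPKM in Notum+/+ and 1232 and 1136 FPKM in Notum-/- at E16.5 (-0.63 ± 0.12, limma adjusted p = 0.021). Rplp2 was at 187 and 208 against 160 and 148 FPKM (-0.36 ± 0.08, limma adjusted p = 0.028). Rplp0 was at 1089 and 1202 against 1059 and 1020 FPKM, a difference of -0.14 ± 0.09 (limma adjusted p = 0.31). The knockouts were below the wild types for all 3 genes. After removal of the GC trend no stalk gene passed: Rplp1 was at -0.39 (limma adjusted p = 0.098), Rplp2 at -0.26 (0.080) and Rplp0 at 0.09.

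Of the proteins that bind Mdm2, Rpl11 was lower in the knockouts and Rpl5 did not pass. Rpl11 was at 169 and 189 FPKM in Notum+/+ and 87.4 and 87.8 FPKM in Notum-/- at E16.5 (-1.03 ± 0.07, limma adjusted p = 0.0043), whereas at E14.5 it was at 104 and 88.2 against 91.6 and 102 FPKM with overlap. Rpl5 was at 204 and 230 against 187 and 178 FPKM (-0.25 ± 0.07, limma adjusted p = 0.066). Of the 15 p53 target genes, 2 were higher and 3 lower, with a median of -0.06. That is 33.3%, close to the 30.9% called among the genes tested other than the members. Bax, which promotes apoptosis, fell by 0.59 on the log2 scale (limma adjusted p = 0.0060), and Ccng1, a cyclin that p53 induces, rose by 0.37 (limma adjusted p = 0.018). Phlda3 (-0.15, limma adjusted p = 0.32) and Plk2 (0.10, limma adjusted p = 0.24) did not pass.

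Rpl38, the gene mutated in the Tail-short mouse, whose skeleton is misshapen, was at 193 and 270 FPKM in Notum+/+ and 119 and 109 FPKM in Notum-/- at E16.5 (-1.003 ± 0.17, limma adjusted p = 0.017; 0.057 with no variance trend). The groups did not overlap. Rps19, the gene most often mutated in Diamond-Blackfan anaemia, was at 111 and 112 against 108 and 104 FPKM (-0.07 ± 0.04, limma adjusted p = 0.30). Rps6, the substrate of the S6 kinases, was at 456 and 512 against 498 and 454 FPKM (-0.02 ± 0.09, limma adjusted p = 0.87), with overlap. Rps3, which lies at the mRNA entry, was at 184 and 201 against 175 and 164 FPKM (-0.18 ± 0.07, limma adjusted p = 0.11).

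Fau and Rps27a, whose products are cut to release a ribosomal protein, did not pass at E16.5, and neither did Rpsa, which also acts as a laminin receptor. Fau, a fusion of a ubiquitin-like protein with Rps30, was at 463 and 418 FPKM in Notum+/+ and 431 and 412 FPKM in Notum-/-, and Rpsa was at 395 and 438 against 399 and 384 FPKM. Rps27a, a ubiquitin fusion, was at 248 and 215 against 237 and 62.9 FPKM. The last value stands alone, as the other 7 libraries lay between 163 and 248 FPKM, and it decides the mean of its group.

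Of the genes with a relative in the family, Rpl22 and Rpl22l1 were both lower. Rpl22 was at 102 and 117 FPKM in Notum+/+ and 90.2 and 88.7 FPKM in Notum-/- (-0.29 ± 0.07, limma adjusted p = 0.044), and Rpl22l1, which Rpl22 is known to repress, at 37.7 and 43.2 against 23.8 and 22.8 FPKM (-0.79 ± 0.08, limma adjusted p = 0.0062). Rpl7l1 was at 30.3 and 32.4 against 27.0 and 24.5 FPKM (-0.29 ± 0.07, limma adjusted p = 0.036), while Rpl7 did not pass (-0.15 ± 0.09, limma adjusted p = 0.25). The calls of Rpl22 and Rpl7l1 ended after removal of the length trend (limma adjusted p = 0.070 and 0.051) and with no variance trend (0.11 and 0.098), and that of Rpl22 also with all 8 libraries in one fit (0.053). Rpl3 (-0.16 ± 0.07), Rps27 (-0.14 ± 0.32), Rps27l (-0.15 ± 0.16) and Rpl26 (0.28 ± 0.11) did not pass either.

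The 4 X-linked members were Rpl10, Rpl36a, Rpl39 and Rps4x. At E16.5 none of them passed, with Rps4x at 599 and 653 FPKM in Notum+/+ and 646 and 616 FPKM in Notum-/- and Rpl10 at 341 and 373 against 429 and 396 FPKM (0.21 ± 0.08, limma adjusted p = 0.11). The genotypes differed in Y-linked reads at both ages: 4 Y-linked genes summed to 0.012 and 0.0091 FPKM in Notum+/+ and to 27.0 and 27.4 FPKM in Notum-/- at E16.5, and to 15.01 and 15.7 against 41.2 and 38.9 FPKM at E14.5. Sex and genotype therefore cannot be told apart at E16.5, and the mix of sexes differed with genotype at E14.5.

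**Figure D3:**
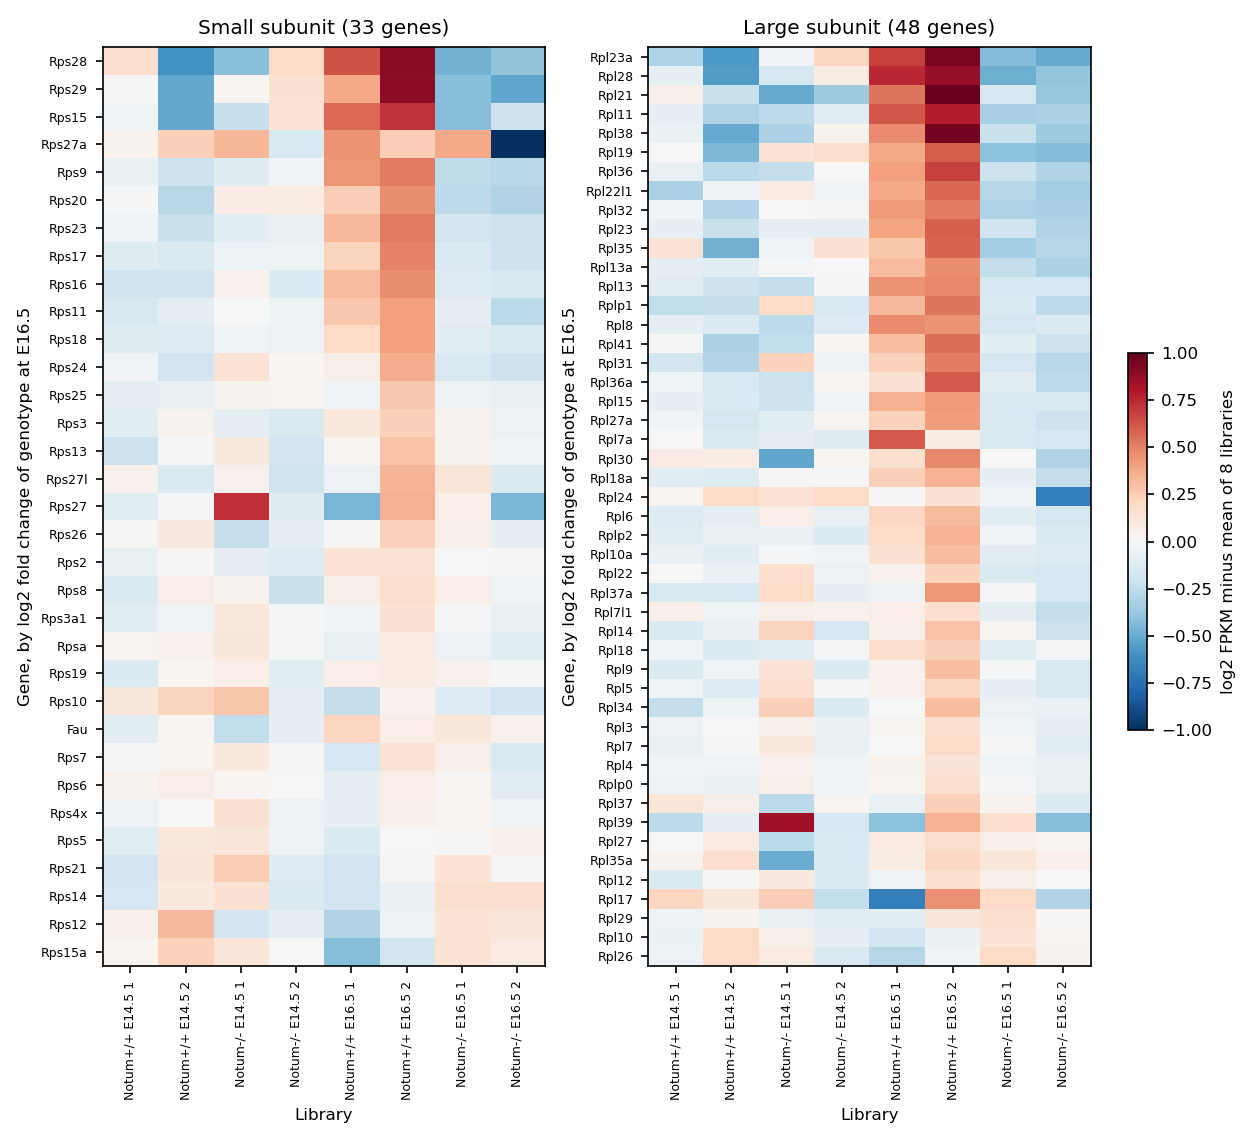
Level of the 81 members above 1 FPKM in each library, as log2 FPKM minus the mean of the 8 libraries, with small subunit genes on the left and large subunit genes on the right, ordered by the log2 fold change of genotype at E16.5. The 2 columns of Notum+/+ at E16.5 are above the mean for the upper genes of each panel; single cells that stand out are Rps27a in Notum-/- E16.5 replicate 2 and Rps27 and Rpl39 in Notum-/- E14.5 replicate 1.

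In the wild type 33 ribosomal protein genes rose from E14.5 to E16.5. They were 33 of the 81 members tested, and 1, Rps15a, fell, where 21.2% of the 18334 other genes tested rose and 18.8% fell. Of the 249 other genes above 100 FPKM 70 rose and 40 fell. The median of the members was 0.26 on the log2 scale, with 67 values above 0 and 14 below. Other values moved between the same libraries: the sum of 4 Y-linked genes went from 15.01 and 15.7 to 0.012 and 0.0091 FPKM, that of the 4 oral epithelial markers from 135 and 124 to 1817 and 1903 FPKM and that of the 8 neuronal markers from 35.4 and 33.7 to 113 and 113 FPKM. Age, sex and cell composition cannot be told apart in these 4 libraries. Rpl23a rose from 182 and 151 to 362 and 432 FPKM (1.26 ± 0.14, limma adjusted p = 0.0042), Rpl28 from 146 and 106 to 265 and 288 FPKM (1.14 ± 0.17, limma adjusted p = 0.0083) and Rpl38 from 132 and 97.7 to 193 and 270 FPKM (1.003 ± 0.22, limma adjusted p = 0.024; 0.063 with no variance trend). Rps15a went from 88.1 and 101 to 64.3 and 76.1 FPKM and so fell by 0.43 (limma adjusted p = 0.039; 0.077 with the GC trend removed). The wild types of E16.5 are in this comparison and in that of genotype at E16.5, so the 33 genes that rose here, all of them among the 36 that were lower in the knockouts, are not a second finding. Without Notum+/+ E16.5 replicate 2 the median was 0.16, and without replicate 1 of that group 0.39. Without replicate 1 or 2 of Notum+/+ E14.5 it was 0.25 and 0.29. In each of these fits fewer members rose past the threshold, and fewer of all genes tested passed, than with every library. Both were fewest without Notum+/+ E16.5 replicate 2.

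In the knockout no member rose past the threshold from E14.5 to E16.5. Of the 82 members tested 0 rose and 7 fell, where 7.46% of the 18373 other genes tested rose and 4.49% fell. The median of the members was -0.09. Of the 249 other genes above 100 FPKM 23 rose and 23 fell. With voom on the rebuilt reads 5 members rose and 16 fell, together 25.6% against 24.1% of the other genes. An unadjusted p under 0.05 was reached by 18 members (22.0%, against 30.6%). Rpl19 went from 387 and 399 to 264 and 261 FPKM (-0.58 ± 0.06, limma adjusted p = 0.0097), Rpl23a from 221 and 261 to 166 and 158 FPKM (-0.57 ± 0.10, limma adjusted p = 0.031; 0.088 with no variance trend) and Rps29 from 164 and 179 to 120 and 113 FPKM (-0.56 ± 0.07, limma adjusted p = 0.015; 0.12 with all 8 libraries in one fit). The other 4 were Rpl13a, Rpl22l1, Rpl32 and Rps20. The 7 calls depended on both knockout libraries of E16.5, as did nearly all calls among all genes tested. Without replicate 1 or 2 of that group the median of the members was -0.12 and -0.05. The 4 oral epithelial markers went from 266 and 270 to 1093 and 1064 FPKM between these ages. The 6 skeletal muscle markers went from 456 and 426 to 914 and 893 FPKM, and the 4 Y-linked genes from 41.2 and 38.9 to 27.0 and 27.4 FPKM. Age, cell composition and the mix of sexes cannot be told apart in these 4 libraries either.

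The genotype effect differed between the ages for a part of the members. The interaction term, the effect at E16.5 minus that at E14.5, was below 0 for 31 and above 0 for 1 of 82 members at an adjusted p under 0.05, where 10.2% of the 18368 other genes tested were called lower and 9.41% higher. Of the 249 other genes above 100 FPKM 59 were called lower and 25 higher. The median of the members was -0.41. The term uses all 8 libraries, and genotype, age, sex and cell composition cannot be told apart in it. With any single library left out the median was between -0.49 and -0.28. In each of these fits fewer members were below 0 past the threshold, and fewer of all genes tested passed. Both were fewest without a Notum-/- library of E16.5. The term was -1.82 ± 0.19 for Rpl23a (limma adjusted p = 0.0044), -1.54 ± 0.22 for Rpl28 (limma adjusted p = 0.0086) and -1.04 ± 0.14 for Rpl11 (limma adjusted p = 0.0076). For Rps28 it was -1.32 ± 0.40 and did not pass (limma adjusted p = 0.064), with libraries of E14.5 that spread from 34.9 to 61.0 FPKM. The single positive term was that of Rps12 (0.65 ± 0.16, limma adjusted p = 0.035), whose named pseudogenes took 37.0% of the joint reads, and with their reads added no member was above 0. For Rpl39l a term of -1.59 passed (limma adjusted p = 0.045), but it rests on the 2 and 2 reads of the wild types of E14.5.

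Over all 8 libraries one pattern was frequent. Both Notum+/+ libraries of E16.5 lay above the other 6 for 42 of 82 members, 29 of the large and 13 of the small subunit, and below them for 1, Rps15a, whereas over the 18368 other genes tested these shares were 22.3% and 22.8%. For 9 members both knockouts of E16.5 were the lowest of the 8, against 9.17% of the other genes tested. Other members were level: the highest library was less than 1.2 times the lowest for 9, among them Rps6 (1.13 times), Rpl4 (1.15 times), Rps19 (1.17 times) and Rps4x (1.18 times). The ratio was over 2 for 15 members. It was 3.95 for Rps27a, where 1 library stands alone, 2.92 for Rpl21, whose level is uncertain, and 2.87 for Rpl23a.

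Replicates of one group agreed less for members than for other genes. The median fold between the 2 libraries was 1.08 in Notum+/+ and 1.11 in Notum-/- at E14.5, and 1.15 and 1.05 at E16.5. In other genes over 10 FPKM it was 1.06 and 1.06 at E14.5, and 1.05 and 1.03 at E16.5. The fold between the 2 libraries of a group was over 1.5 for 2 to 3 of 81 members in each group (2.47% to 3.70%), and for 0.58% to 1.04% of other genes over 10 FPKM. Rps27, the zinc finger protein of the small subunit, was at 419 and 232 FPKM in Notum-/- at E14.5 and at 184 and 323 FPKM in Notum+/+ at E16.5. Rpl39, one of the shortest members, was at 359 and 178 FPKM and at 151 and 255 FPKM in the same libraries. Rpl17 was at 124 and 274 FPKM in Notum+/+ at E16.5, a fold of 2.21. In these libraries the 3 genes were high or low together, and none of them passed in any of the 5 comparisons. The median member was 0.19 lower on the log2 scale in replicate 1 than in replicate 2 of Notum+/+ at E16.5, the largest such gap of the 4 groups.

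Members shared short transcripts and had a usual base composition. The 81 members above 1 FPKM had a median main transcript of 751 bases and a median coding length of 453 bases, against 2973 and 1395 bases in other protein-coding genes above 1 FPKM, and a median of 5 exons against 9. The median GC content was 50.9% against 50.6%. The 84 genes lie on 20 chromosomes, with 14 on chromosome 7, 8 on chromosome 17 and 7 on chromosomes 9 and 11. Across the members the log2 fold change of genotype at E16.5 went little with GC content (Pearson r = -0.07 over 81 genes), while over 5695 other genes above 10 FPKM r was -0.54. With listed gene length r was 0.25 in the members and 0.23 in other genes, so that shorter genes tended to the lower values. Genes share their libraries, and no test was made of these correlations. After removal of the GC trend of each library 29 members were lower and 1 higher at E16.5, with a median of -0.30. In that fit 3231 of all 18570 genes tested were called, against 5747 in the main fit. The 30 members with a pyrimidine run at the start had a median fold change of genotype at E16.5 of -0.31 and the 31 without one -0.25.

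Other gene groups of the translation machinery also held genes that passed at E16.5, where 30.9% of the genes tested other than the members were called in either direction, and differences between lists were not tested. Of 26 further TOP genes, translation factors for the most part, 2 were higher and 9 lower, with a median of -0.18. Eef1g, a subunit of elongation factor 1, fell by 0.51 (limma adjusted p = 0.0081), whereas Eef1a1, the elongation factor itself, was at 2809 and 3032 against 2676 and 2643 FPKM (limma adjusted p = 0.44). Of 40 ribosome biogenesis genes 4 were higher and 12 lower, with a median of -0.07, and Ubtf, the factor of RNA polymerase I, fell by 0.29 (limma adjusted p = 0.011). Of 16 genes of Myc and mTORC1 2 were higher and 3 lower. Myc itself was at 15.6 and 14.6 FPKM in Notum+/+ and 14.52 and 14.04 FPKM in Notum-/- (limma adjusted p = 0.32). Of 20 proliferation genes 4 were higher and 3 lower, Top2a by 0.20 higher (limma adjusted p = 0.021), and of 38 proteasome genes 2 were higher and 10 lower.

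Mitochondrial lists showed 2 directions. Of 77 mitochondrial ribosomal protein genes 31 were lower and 2 higher in Notum-/- at E16.5, with a median of -0.21, and Mrpl28 went from 32.7 and 34.9 to 25.7 and 26.1 FPKM. Of 74 nuclear genes of oxidative phosphorylation 36 were lower and 0 higher, with a median of -0.34, and Cox8a, a subunit of cytochrome c oxidase, fell by 0.31 (limma adjusted p = 0.027). Of the 13 mitochondrially encoded genes 8 were higher and 0 lower, with a median of 0.71, mt-Nd2 being at 853 and 1013 against 1504 and 1488 FPKM. Among the 249 other genes above 100 FPKM 78 were lower and 55 higher, with a median of -0.06. The counts and the median of the nuclear respiratory genes were thus close to those of the ribosomal protein genes.

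**Figure D4:**
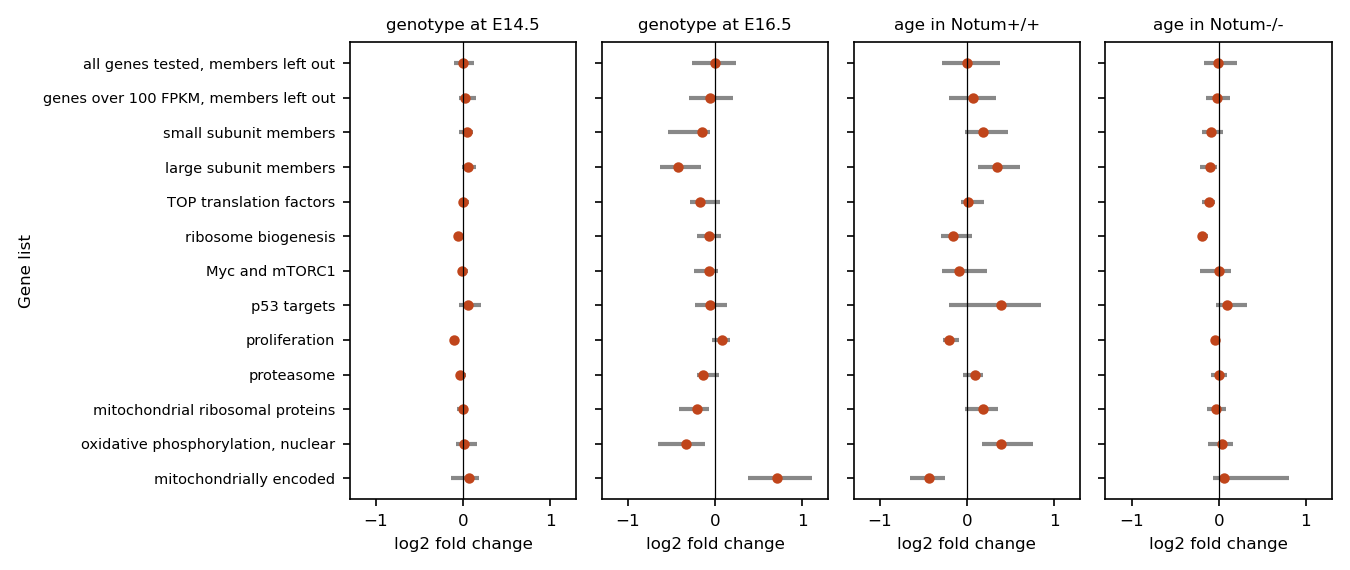
Median log2 fold change (dots) and range from the 25th to the 75th percentile (bars) of the genes tested in each list, for genotype (Notum-/- minus Notum+/+) at each age and for age (E16.5 minus E14.5) in each genotype. At E16.5 the large subunit members are at -0.43, the small subunit members at -0.14, nuclear oxidative phosphorylation at -0.34 and mitochondrially encoded genes at 0.71; the age panels share libraries with the genotype panels.

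Cell type markers moved with the same libraries. The 7 markers listed for dental epithelium were Krt14, Krt5, Epcam, Cdh1, Shh, Trp63 and Fgf9. They summed to 1876 and 1887 FPKM in Notum+/+ and 1081 and 1102 FPKM in Notum-/- at E16.5, and to 434 to 565 FPKM at E14.5. The part of oral epithelium in this sum was not tested. The 4 oral epithelial markers were at 1817 and 1903 against 1093 and 1064 FPKM, and 8 neuronal markers at 113 and 113 against 28.6 and 27.5 FPKM. The 5 Schwann cell markers were at 47.6 and 46.5 against 22.0 and 21.9 FPKM and the 6 erythroid ones at 1198 and 1357 against 803 and 873 FPKM. The 6 skeletal muscle markers were higher in the knockouts, at 914 and 893 against 540 and 571 FPKM, as were the 8 dental mesenchymal ones, at 2086 and 2128 against 1748 and 1642 FPKM. The 5 macrophage markers were at 59.9 and 66.1 against 55.1 and 53.7 FPKM and the 4 endothelial ones at 66.4 and 64.4 against 64.7 and 60.9 FPKM. No marker was at or under 3 reads in all 8 libraries. The part of cell composition in the values of the ribosomal protein genes was not tested.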

How the data were processed

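Bulk RNA of molar tooth germs was measured in 8 libraries. The deposited FPKM were calculated by the authors from read counts and gene lengths. The submitters' processing notes name HISAT2 2.0.5, featureCounts 1.5.0-p3 and mm10, and the gene annotation and the strand setting are not given in the sources used here. Multiplied by length and library scale, 100% of the values above 0 gave whole reads within 0.05 (21972354 to 30540596 per library, counting error only), and the scale equals median-ratio size factors. Of 54532 genes listed, 20509 had no read.

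limma 3.58.1 (R 4.3.3; lmFit, eBayes with trend) was fitted to log2(FPKM + 0.1) of all genes with a mean over 0.3 FPKM in the libraries compared, with Benjamini-Hochberg adjustment over all of them and a call at an adjusted p under 0.05 with no limit on the fold change. A fold change is on this scale and understates that of low genes. Genotype was compared at each age, age in each genotype, and their interaction in 8 libraries. The fit was tested on simulated reads, where the share of false calls was above the nominal level, so counts of calls may hold more false ones than the threshold implies. The replicates are separate samples by their labels and several embryos each by the methods. Replicate numbers were not stated to pair samples.

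Named genes were Notum, the members with the 5 highest and 3 lowest means, up to 3 rises and 3 falls among called members per comparison, members fixed by role or with a paralog, and up to 4 genes of the highest mean in each other list. Genes singled out for their spread between replicates or over libraries, for pseudogenes or for their start were chosen after their values were seen. The members and lists were chosen with earlier results of these data known. Transcript features came from GENCODE M21 and starts from RefSeq (GRCm38.p6). Alternatives were other pseudocounts, filters and scalings, voom on the rebuilt reads, no variance trend, removal of GC or length trends, a replicate block, and each library left out. Addition of the pseudogenes' reads to their parents was chosen after seeing the data. The authors' own tests were not used. A marker of the dental epithelium is not reported here and was left out of its sum.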

Additional observations from a re-analysis of the deposited data

Results flagged for a closer look

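For 11 of the named ribosomal protein genes the effect of genotype differed between the ages. The call used the interaction term of limma over 8 libraries at an adjusted p under 0.05. Of the other genes tested 19.6% passed, and of all 82 members tested 39.0%. Rpl23a, Rpl28, Rpl39l and Rps12 were named for this term. Rpl19, Rps29 and again Rpl23a were named for age calls in Notum-/-. Rpl23a, Rpl28 and Rpl38 were named for age calls in Notum+/+, and Rpl23a and Rpl28 also for genotype at E16.5. The term uses the libraries of all these comparisons. The 11 are therefore partly selected by these calls. The term, the log2 effect of Notum loss at E16.5 minus that at E14.5, was -1.82 for Rpl23a, -1.54 for Rpl28, -1.15 for Rpl38, -1.29 for Rpl19, -1.45 for Rps29, -1.04 for Rpl11, -1.002 for Rpl22l1, -0.89 for Rplp1 and -0.33 for Rpl7l1. It was -1.59 for Rpl39l, whose wild types of E14.5 had 2 reads each, and 0.65 for Rps12. With each alternative of the fit the term of Rpl23a stayed between -1.96 and -1.45 and past the threshold.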

How the results depend on the processing

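With the depth of these libraries counting error is small for members over 100 FPKM, and the 2 libraries per group set the precision. Leaving out any single library moved the count of members lower in Notum-/- at E16.5 between 0 and 42 (higher 0 to 3) and the median between -0.45 and -0.21. For age in Notum+/+ the range was 0 to 16 higher, 0 to 1 lower and a median of 0.16 to 0.39, and for age in Notum-/- 0 to 2, 0 to 8 and -0.12 to -0.05. For the interaction it was 0 to 2 higher, 8 to 30 lower and -0.49 to -0.28, and at E14.5 0, 0 and 0.01 to 0.08. A left-out library leaves its group with 1 sample that is assumed to vary like the others.

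The replicate number as a block called 0 members higher and 26 lower at E16.5, where 3896 of all 18570 genes tested were called. With age in Notum+/+ it called 29 higher and 2 lower, and 7026 of all 18415 genes tested. Nothing states that the numbers pair samples, and the differences between replicates correlated over 18450 genes with r from -0.05 to 0.06 between the groups of a comparison. With voom on the rebuilt reads 1 member was higher and 2 lower at E14.5, and 5 were higher and 51 lower at E16.5. The called share at E16.5 was 68.3% of the members and 41.5% of the other genes tested. With age in Notum+/+ 51 rose and 3 fell (66.7% against 49.5%), and with age in Notum-/- 5 rose and 16 fell (25.6% against 24.1%). In the interaction 4 were above and 45 below 0 (59.8% against 26.8%). With values scaled to equal sums (TPM) the median of all genes moved to 0.11 in the interaction, where the members had 2 terms above 0 and a median of -0.29. At E16.5 this scaling gave 5 higher and 33 lower members, and 31 rose and 3 fell with age in Notum+/+, with a median of 0.16 against -0.10 for all genes. With no variance trend 0 members were higher at E16.5 while 21 were lower, 20 rose and 0 fell with age in Notum+/+, 1 fell in Notum-/-, and 0 were above 0 in the interaction. With no filter on low values 0 were higher at E16.5, 15 rose and 0 fell in Notum+/+, 3 fell in Notum-/- and 0 were above 0 in the interaction, with more genes in the adjustment. With all 8 libraries in one fit 1 was higher at E16.5, 2 fell in Notum+/+, and 1 rose and 3 fell in Notum-/-. Removal of the GC trend gave 1 higher at E16.5 and 2 rises in Notum-/-, and removal of the length trend 4 higher at E16.5 and 2 falls in Notum+/+. At an adjusted p under 0.1, 2 fell in Notum+/+, 2 rose and 11 fell in Notum-/-, and 2 were above 0 in the interaction. A filter of 1 FPKM gave 1 rise in Notum-/- and 2 terms above 0, and addition of the pseudogenes' reads 0 terms above 0. In each fit named up to here in this paragraph more members were lower than higher at E16.5. The causes were not tested. As a share of rebuilt reads the members took 3.54% and 3.65% at E14.5 and 4.27% and 3.50% at E16.5 in Notum+/+ and Notum-/-. Of 764 values of named members under alternatives 622 kept direction and side of the threshold, 104 no longer passed and 14 newly passed. The other 24 changed sign, all at E16.5 between the genotypes and 0 of them with a call in either fit. That comparison held 31 of the 42 named values, and those of the other comparisons were picked as the largest called changes. With the GC trend removed the log2 difference became 0.086 for Rplp0, 0.039 for Rpsa, 0.20 for Fau, 0.10 for Rps6, 0.098 for Rps19 and -0.11 for Rps4x. With the length trend removed it became 0.028 for Fau, 0.096 for Rps6, 0.021 for Rpl39 and 0.0067 for Rps3a1, and with equal sums 0.021 for Fau, 0.059 for Rps6 and 0.016 for Rps19. With any single library left out it ranged from -0.13 to 0.011 for Fau, -1.88 to 0.035 for Rps27a, -0.11 to 0.059 for Rps6, -0.051 to 0.075 for Rps4x, -0.48 to 0.28 for Rpl39, -0.55 to 0.26 for Rps27 and -0.35 to 0.054 for Rps27l.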
